A study of Arabidopsis thaliana with 9 samples.

Results

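The enzymes that lengthen methionine for aliphatic glucosinolates were followed gene by gene in sepals of Arabidopsis thaliana. The set was chosen by name and locus from the known steps of the pathway and holds 9 of the 38299 genes of the deposited table: BCAT4, BAT5, MAM1, MAM3 (named IMS2 in the table), IPMI LSU1 (IIL1), IPMI SSU2 (IPMI2), IPMI SSU3 (IPMI1), IMD1 and BCAT3. Each library was made from 200 sepals dissected from 50 closed buds (floral stage 12) of plants kept at 23 °C under continuous light. There were 3 genotypes with 3 libraries each: wild-type Col-0 (WT) and the mutants gir1-1 and atml1-3, for which the labels give the allele name and neither the kind of mutation nor the background. GIR1 codes for a small adaptor protein, ATML1 for an epidermal transcription factor of the HD-ZIP IV class, and the series title asks about both in relation to glucosinolates. The labels call the libraries triplicates without saying whether they came from separate plantings, so p-values measure the spread between these libraries, which may be partly technical.

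Aliphatic glucosinolates are sulfur-rich defence compounds of the cabbage order, and in Arabidopsis most of them are built on methionine whose side chain has been lengthened. Methionine is first deaminated in the cytosol and carried into the plastid as its keto acid, where a cycle of condensation with acetyl-CoA, isomerisation and oxidative decarboxylation adds a methylene group in each turn, before an aminotransferase restores the amino group. The cycle mirrors the last steps of leucine synthesis, and most of its enzymes have close relatives that work in branched-chain amino acid metabolism.

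The libraries held between 15328056 and 20148807 counts, and 3 counts, taken as the least a library can show, amount to between 0.149 and 0.196 CPM, counts scaled to a common library size; this limit covers counting error only. Libraries of the same genotype differed by 27.7 to 67.1 in chi-square per degree of freedom, so none repeated another within sampling noise. Counts of the mutated genes were read first: for GIR1 (AT5G06270) they were 26, 36 and 73 in WT against 12, 10 and 7 in gir1-1, and for ATML1 they were 522, 537 and 872 in WT against 124, 345 and 266 in atml1-3. All 3 libraries of each mutant lay below every WT library for the mutated gene, but by edgeR the adjusted p was 0.385 for GIR1 and 0.365 for ATML1. By DESeq2's Wald test it was 0.0367 for GIR1 and 0.00508 for ATML1, and the authors' deposited values are 0.0624 and 0.00289. The other mutant was also below WT in both cases, with 14, 10 and 17 counts of GIR1 in atml1-3 and 424, 392 and 325 of ATML1 in gir1-1. The mutants overlapped each other in both genes, so these counts do not tell gir1-1 and atml1-3 libraries apart. Levels of different genes are compared below as FPKM, the authors' values scaled by gene length and library size, and differences between genotypes come from the counts.

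By their means, chain-elongation transcripts were most abundant in gir1-1, intermediate in WT, where 7 of the 9 were very uneven, and least abundant in atml1-3. The atml1-3 libraries overlapped those of WT for all 9 genes, however, and without WT replicate 2 BAT5 was no longer lower in atml1-3 than in WT. In whole sepals, fewer cells of a type and less RNA per cell cannot be told apart. BCAT4 and MAM1 showed the widest differences over all libraries: their mean CPM was 10.4 and 10.9 times the WT mean in gir1-1, and 86.6 and 89.7 times as high in gir1-1 as in atml1-3. Without WT replicate 2 the log2 fold change in gir1-1 was 4.21 for BCAT4 and 4.31 for MAM1, in place of 3.38 and 3.45, and that of BAT5 was higher still at 4.69. With other libraries left out the change fell instead, to 2.82 for BCAT4 without gir1-1 replicate 1. For MAM1 and BAT5 the change fell to 2.96 and 2.33 without WT replicate 3. IPMI LSU1 and BCAT3 moved least, with means in gir1-1 1.66 and 1.85 times those in atml1-3. Of the 9 genes, only the difference of MAM1 between the mutants passed a threshold of 0.05 on the edgeR p-value adjusted over all 19174 genes tested. The WT libraries were far apart for 7 of the genes, and this spread enters every comparison with WT.

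**Figure D1:**
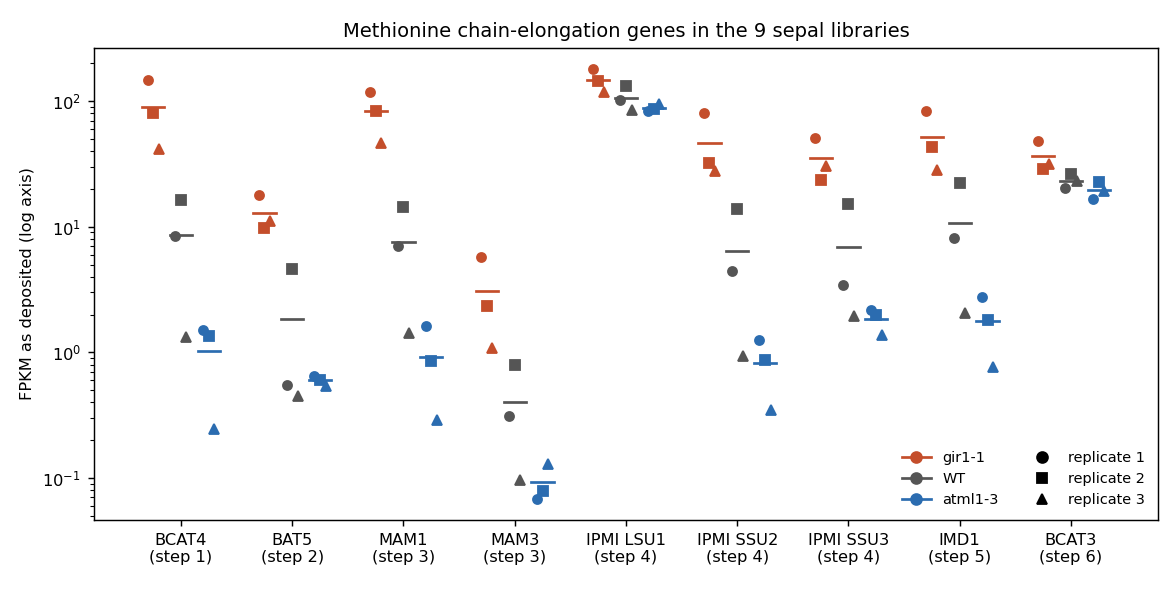
Deposited FPKM on a log axis for the 9 genes in pathway order, with 1 point per library (symbol by replicate number, colour by genotype) and a bar at the mean of each genotype. The gir1-1 libraries lie above all WT libraries for every gene but IPMI LSU1, where 117 FPKM in gir1-1 replicate 3 is below 131 FPKM in WT replicate 2; WT replicate 2 lies at the top of the WT points throughout.

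BCAT4 (AT3G19710, TAIR10.1 chromosome 3, 6846969 to 6849582, minus strand, 9 exons) encodes the cytosolic aminotransferase that removes the amino group of methionine and so opens the pathway. It stood at 8.42, 16.2 and 1.33 FPKM in WT replicates 1 to 3, at 148, 79.9 and 41.5 in gir1-1, and at 1.51, 1.35 and 0.246 in atml1-3. Every gir1-1 library exceeded every WT library, whereas the lowest WT library lay among those of atml1-3. The log2 fold change against WT was 3.38 (SE 0.80) in gir1-1 and -3.04 (SE 0.87) in atml1-3 (adjusted p 0.353 and 0.372) by the quasi-likelihood F test of edgeR, adjusted by Benjamini-Hochberg. Between the mutants the log2 difference, atml1-3 minus gir1-1, was -6.42 (SE 0.96), with an adjusted p of 0.0544 by edgeR. The annotated exons of BCAT4 share 21.2% of their bases with IKU2 (AT3G19700) on the other strand, and the use of strand in counting is not given in the sources used here, but IKU2 itself had at most 4 counts in any library.

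BAT5 (AT4G12030, chromosome 4, 7210807 to 7213376, plus strand, 3 to 7 exons depending on the transcript) encodes the carrier that brings the keto acid into the plastid. Its level was 0.545, 4.57 and 0.451 FPKM for WT, 17.8, 9.77 and 11.1 for gir1-1, and 0.650, 0.604 and 0.538 for atml1-3. WT replicate 2 stood alone here: the other 2 WT libraries were at the level of atml1-3. Against WT, BAT5 had a log2 fold change of 2.80 (SE 0.74) in gir1-1 and -1.62 (SE 0.78) in atml1-3 (adjusted p 0.435 and 0.452 by edgeR). Without WT replicate 2 the change in gir1-1 was 4.69 with an adjusted p of 0.00686, and the value in atml1-3 turned to 0.27 with an adjusted p of 0.807, both by edgeR. Without WT replicate 3 the change in gir1-1 was 2.33. With any 1 library left out its adjusted p ran from 0.00686 to 0.768 by edgeR. The log2 difference between the mutants, atml1-3 minus gir1-1, was -4.42 (SE 0.81), with an adjusted p of 0.105 by edgeR.

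The condensing enzymes MAM1 (AT5G23010, 9 or 10 exons on the plus strand of chromosome 5, 7703041 to 7706973) and MAM3 (AT5G23020, 10 exons on the same strand, 7718118 to 7721866) are methylthioalkylmalate synthases, which condense the keto acid with acetyl-CoA; MAM1 is known for the first turns of the cycle and MAM3 for chains of all lengths. The genes lie 11.1 kb apart. MAM1 stood at 6.99, 14.3 and 1.43 FPKM in WT, at 119, 83.3 and 46.6 in gir1-1, and at 1.61, 0.859 and 0.290 in atml1-3. Again no gir1-1 library overlapped WT, and WT replicate 3 lay between the atml1-3 libraries. MAM1 had a log2 fold change against WT of 3.45 (SE 0.74) in gir1-1 and -3.04 (SE 0.80) in atml1-3 (adjusted p 0.302 and 0.372 by edgeR). The log2 difference of atml1-3 from gir1-1 was -6.49 (SE 0.88), and its adjusted p of 0.0423 by edgeR was under the threshold. The call was kept without WT replicate 2 (adjusted p 0.0180 by edgeR) and without WT replicate 3 (0.00581), and was lost when any other single library was left out. Without WT replicate 1 the adjusted p was 0.0639 by edgeR, without gir1-1 replicates 1, 2 or 3 it was 0.148, 0.0973 and 0.0649, and without atml1-3 replicates 1, 2 or 3 it was 0.149, 0.195 and 0.302, while the log2 difference stayed between -7.12 and -6.07.

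MAM3 was the least abundant of the 9 genes in every genotype. Its counts were 10, 24 and 3 for WT, 187, 70 and 40 for gir1-1, and 2, 3 and 4 for atml1-3, or 0.401 ± 0.356, 3.05 ± 2.42 and 0.0921 ± 0.0331 FPKM (mean ± SD, n = 3 each). The exact Poisson interval of 95% around the 3 counts of WT replicate 3 runs from 0.619 to 8.77 counts and overlaps those of all 3 atml1-3 libraries, so WT replicate 3 could not be told from atml1-3 at this depth. Its log2 fold change against WT was 2.92 (SE 0.77) in gir1-1 and -2.07 (SE 0.91) in atml1-3 (adjusted p 0.435 and 0.417 by edgeR). The gene passed the filter on low counts through the gir1-1 libraries, and in a fit of WT and atml1-3 alone it was not tested. The log2 difference between the mutants was -4.99 (SE 0.90, atml1-3 minus gir1-1), with an adjusted p of 0.0919 by edgeR.

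The isomerase works as a large and a small subunit, and the small subunits SSU2 and SSU3 are the ones known to serve chain elongation. IPMI LSU1 (AT4G13430, chromosome 4, 7803863 to 7807984, minus strand, 15 exons), the large subunit that leucine synthesis also uses, was the most abundant of the 9 genes in every genotype. It stood at 101, 131 and 84.6 FPKM in WT, at 179, 145 and 117 in gir1-1, and at 82.8, 86.5 and 95.4 in atml1-3. It was the only gene of the set whose gir1-1 and WT libraries overlapped. Its log2 fold change was 0.48 (SE 0.21) in gir1-1 and -0.25 (SE 0.21) in atml1-3 (adjusted p 0.655 and 0.656 by edgeR).

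IPMI SSU2 (AT2G43100, chromosome 2, 17920647 to 17921844, plus strand, 1 exon) stood at 4.45, 13.7 and 0.930 FPKM in WT, at 79.9, 32.1 and 27.9 in gir1-1, and at 1.25, 0.874 and 0.347 in atml1-3. IPMI SSU3 (AT3G58990, chromosome 3, 21797058 to 21798303, minus strand, 1 exon) stood at 3.45, 15.1 and 1.93 FPKM in WT, at 50.6, 23.7 and 30.6 in gir1-1, and at 2.16, 1.99 and 1.38 in atml1-3. For both small subunits the gir1-1 libraries were all above WT, and WT replicate 3 fell within the range of atml1-3. The log2 fold change in gir1-1 was 2.87 (SE 0.78) for SSU2 and 2.36 (SE 0.64) for SSU3, each with an adjusted p of 0.442 by edgeR, and without WT replicate 2 that of SSU3 was 3.70 with an adjusted p of 0.0392. Without WT replicate 3 that of SSU3 was 1.91. With any 1 library left out the adjusted p of SSU3 ran from 0.0392 to 0.814 by edgeR. In atml1-3 the log2 fold change of SSU2 and SSU3 was -2.93 (SE 0.88) and -1.88 (SE 0.67), with adjusted p-values of 0.372 and 0.381 by edgeR, and without WT replicate 2 it was -1.70 and -0.54 (adjusted p 0.502 and 0.664). Between the mutants the log2 differences were -5.81 (SE 0.94) and -4.24 (SE 0.71), both at an adjusted p of 0.0728 by edgeR, whereas IPMI LSU1 differed by -0.73 (SE 0.21) with an adjusted p of 0.558.

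IMD1 (AT5G14200, chromosome 5, 4576123 to 4578402, plus strand, 8 or 9 exons) encodes the dehydrogenase of the oxidative decarboxylation that closes each turn. It stood at 8.06, 22.3 and 2.06 FPKM in WT, at 84.0, 43.3 and 28.3 in gir1-1, and at 2.75, 1.81 and 0.766 in atml1-3. The ranges of gir1-1 and WT were close but apart, with 28.3 FPKM as the lowest and 22.3 FPKM as the highest value. IMD1 had a log2 fold change of 2.27 (SE 0.73) in gir1-1 and -2.60 (SE 0.79) in atml1-3 (adjusted p 0.512 and 0.372 by edgeR), and the mutants differed by -4.86 (SE 0.84) with an adjusted p of 0.0793. Of the 50-base words in the IMD1 exons 7.84% also occur elsewhere in the genome, against 0% for the other 8 genes, so a small part of its reads could have been assigned to a relative.

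BCAT3 (AT3G49680, chromosome 3, 18422542 to 18425758, plus strand, 10 exons) encodes a plastid aminotransferase that restores the amino group and also acts in branched-chain amino acid synthesis. It stood at 20.3, 26.4 and 23.2 FPKM in WT, at 48.4, 28.9 and 31.8 in gir1-1, and at 16.7, 22.7 and 19.4 in atml1-3. All gir1-1 libraries were above WT, by little in replicate 2, and atml1-3 overlapped WT. BCAT3 had a log2 fold change of 0.65 (SE 0.21) in gir1-1 and -0.24 (SE 0.21) in atml1-3 (adjusted p 0.523 and 0.688 by edgeR), and between the mutants it was -0.89 (SE 0.22) with an adjusted p of 0.363.

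The order of levels changed with the genotype. In WT, IPMI LSU1 led at 106 ± 23.4 FPKM (mean ± SD, n = 3), above every other gene in every library. By their means BCAT3 followed at 23.3 ± 3.04, then 5 genes from IMD1 at 10.8 ± 10.4 to IPMI SSU2 at 6.36 ± 6.60, then BAT5 at 1.85 ± 2.35 and MAM3. From BCAT3 to MAM3 the ranges of each gene and the next over the libraries overlapped. Within each WT library, though, BCAT3 came next after IPMI LSU1, BAT5 lay below those 5 genes and MAM3 was lowest. The order among the 5 changed from library to library. In gir1-1, BCAT4 at 89.8 ± 54.0 FPKM and MAM1 at 82.9 ± 36.1 stood next after IPMI LSU1 at 147 ± 30.9, and BCAT3 was sixth by its mean. Their ranges over the libraries overlapped those of their neighbours. Within each gir1-1 library, though, BCAT4 and MAM1 lay below IPMI LSU1 and above the other genes. BCAT4 was above MAM1 in replicate 1 and below it in replicates 2 and 3. In atml1-3, IPMI LSU1 at 88.2 ± 6.46 and BCAT3 at 19.6 ± 2.98 FPKM were apart from all others, which lay at or below 1.84 ± 0.407 FPKM (IPMI SSU3).

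The spread among the WT libraries was set against that of all genes. The highest WT library exceeded the lowest in CPM by 14.8 times for IPMI SSU2, 12.2 for BCAT4, 10.8 for IMD1, 10.2 for BAT5, 10.1 for MAM1, 8.27 for MAM3 and 7.87 for IPMI SSU3, but by 1.55 times for IPMI LSU1 and 1.31 times for BCAT3. Over the 18999 tested genes with a count in every WT library, the median of this ratio was 1.51. The share of those genes with a wider WT range was 0.758% for IPMI SSU2, 1.07% for BCAT4, 1.59% for MAM1 and 2.29% for IPMI SSU3, against 46.7% for IPMI LSU1 and 70.1% for BCAT3. The libraries kept the same order: replicate 2 was the highest WT library for 9 of 9 genes, and replicate 3 the lowest for 8, with BCAT3 lowest in replicate 1. Because genes of a library share its sepals and its preparation, this agreement describes 3 libraries and is not 9 observations.

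The median ratio was smaller in the mutants, though BCAT3 varied more there, by 1.68 times in gir1-1 and 1.36 times in atml1-3, and IPMI LSU1 by 1.53 times in gir1-1, close to WT. The median ratio of highest to lowest library over the 9 genes was 10.1 in WT, 2.57 in gir1-1 (range 1.53 to 5.39) and 1.90 in atml1-3 (range 1.15 to 6.15), while over all genes it was 1.51, 1.45 and 1.36. The 1.90 is the ratio of MAM3, from 2, 3 and 4 counts, and so is poorly fixed. Its neighbours in the order were IPMI SSU3 at 1.56 and IMD1 at 3.59. In gir1-1, replicate 1 was the highest library for 9 of 9 genes. The relatives of branched-chain metabolism described below had a median ratio of 1.21 in WT (range 1.08 to 1.69).

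**Figure D2:**
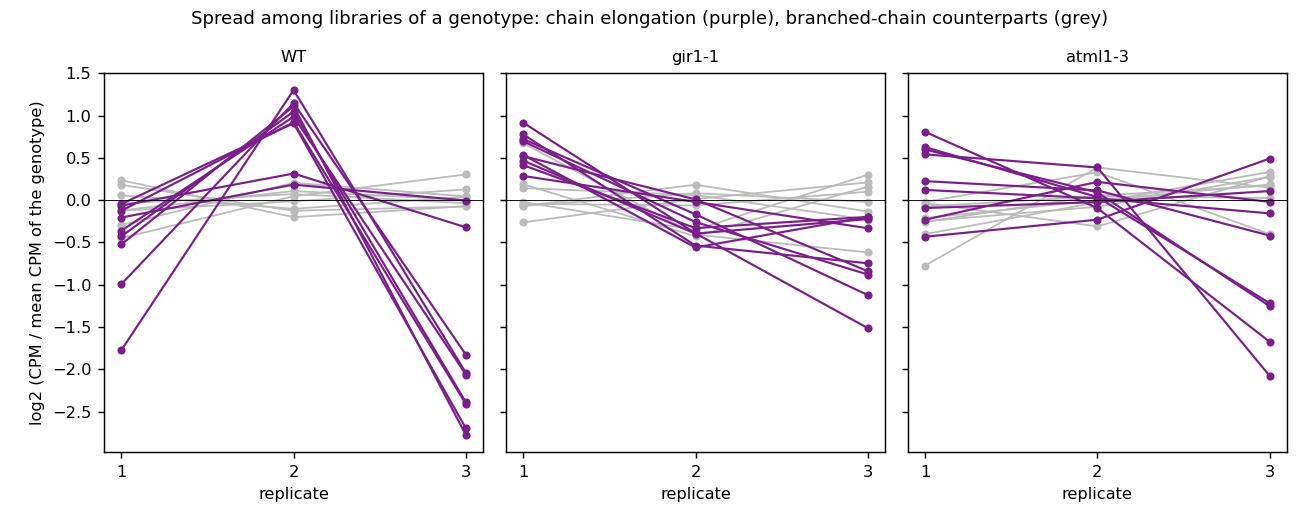
log2 of each library's CPM over the mean CPM of its genotype, by replicate number, for the 9 chain-elongation genes (purple) and the 8 tested branched-chain relatives (grey). Lines join the values of 1 gene and imply no order of the libraries; in WT all 9 purple lines peak in replicate 2 and fall in replicate 3, 7 of them steeply, and the grey lines stay close to 0.

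The comparison of each mutant with WT asked whether these genes differ in level when GIR1 or ATML1 is mutated; both comparisons use the same WT libraries. In gir1-1 against WT, edgeR called 0 of the 9 genes at an adjusted p under 0.05, where 0.0156% of all genes were called, and 9 of 9 were higher at an unadjusted p under 0.05, where 3.36% of all genes were. The libraries did not overlap for 8 of 9 genes, all higher in gir1-1, against 5.17% of all genes. DESeq2's Wald test called 3 of 9 higher, where it called 0.382% of all genes higher and 0.749% in either direction: IPMI SSU3 at an adjusted p of 0.0129, MAM1 at 0.0234 and MAM3 at 0.0244. MAM3 passed the filter on low counts only through the gir1-1 libraries and so had to be high there. It is no support in any of these counts or in those between the mutants. The authors' deposited table has the same 3 of 9 under 0.05, with 0.454% of its genes, and adjusted p-values of 0.0295, 0.0270 and 0.0340.

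In atml1-3 against WT, edgeR called 0 of 9 genes, as it did 0% of all genes, and 6 of 9 were lower at an unadjusted p under 0.05, where 6.22% of all genes were. The exceptions were BAT5, IPMI LSU1 and BCAT3. Without WT replicate 2 the log2 fold change of all 9 genes was nearer to 0 or, for BAT5, above it: besides the values given for BAT5 and the small subunits, it was -2.22 for BCAT4, -2.19 for MAM1, -1.12 for MAM3, -1.51 for IMD1, -0.07 for IPMI LSU1 and -0.14 for BCAT3. The libraries of atml1-3 overlapped those of WT for all 9 genes, since 0 of 9 lay wholly below WT, against 8.64% of all genes. DESeq2 also called 0 of 9, with 0.822% of all genes called, and the authors' deposited table has 1 of 9 under 0.05, IPMI SSU2 at 0.0171, with 1.24% of its genes.

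The direct comparison of atml1-3 with gir1-1 uses WT libraries only in the filter on low counts, the scaling and the shared estimate of spread. In it edgeR called 1 of 9 genes lower in atml1-3 (MAM1), where 0.0782% of all genes were called lower and 0.0834% in either direction. At an unadjusted p under 0.05 it was 9 of 9, against 3.99% of all genes, and all 3 atml1-3 libraries lay below all gir1-1 libraries for 9 of 9, against 7% of all genes. The count of calls moved with the libraries in the fit, WT included: it was 6 without WT replicate 2, 5 without WT replicate 3, 6 in a fit of the 2 mutants alone and 0 without WT replicate 1 or without any single mutant library. With the replicate number as a block it was 4 (BCAT4, MAM1, IPMI SSU2 and IMD1). DESeq2 called 8 of 9 lower, where it called 0.543% of all genes lower and 0.764% in either direction, leaving out IPMI LSU1 at an adjusted p of 0.0998, and the authors' deposited table has 9 of 9 under 0.05, with 1.31% of its genes. The median log2 difference of the 9 genes from WT was 2.80 in gir1-1 and -2.07 in atml1-3, and the median between the mutants was -4.86, beside medians over all genes of 0.00, -0.01 and 0.00. These medians include MAM3, which is no support here. The -2.07 is the value of MAM3 itself, from 2, 3 and 4 counts in atml1-3. Its neighbours in the order were IMD1 at -2.60 and IPMI SSU3 at -1.88.

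**Figure D3:**
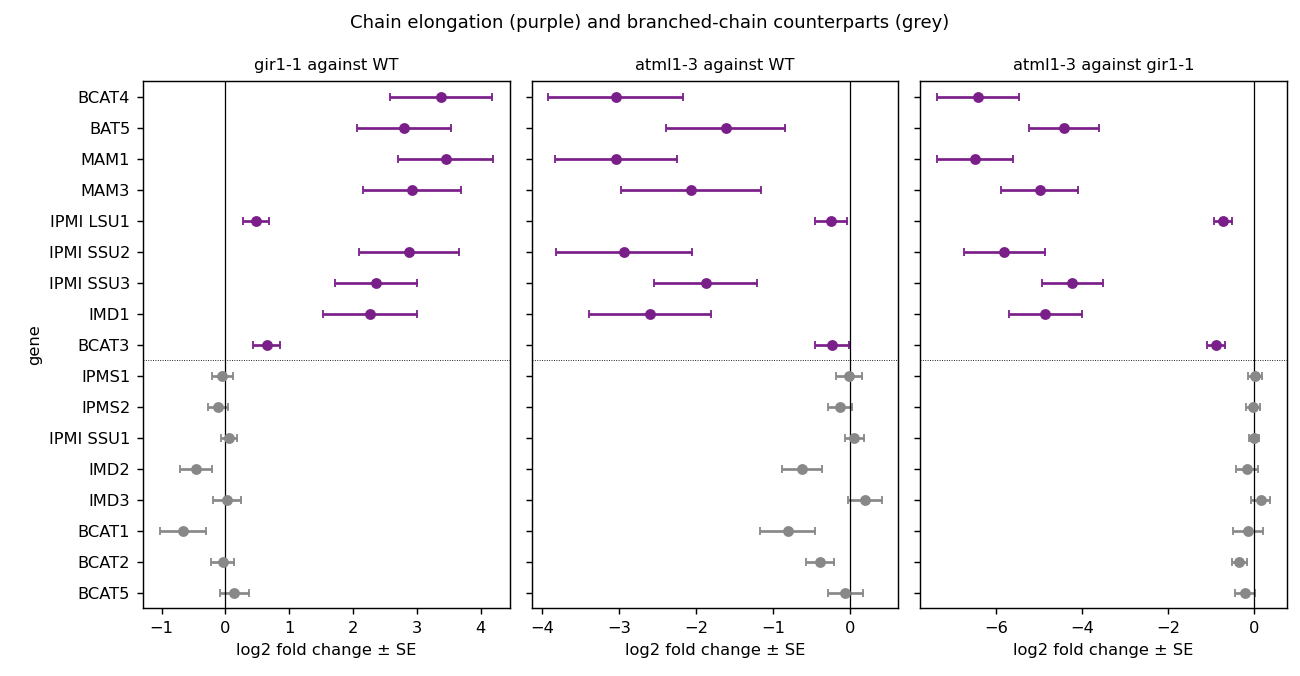
log2 fold change by edgeR with its standard error for the 9 chain-elongation genes (purple) and their 8 tested branched-chain relatives (grey), in gir1-1 against WT, atml1-3 against WT and atml1-3 against gir1-1. The horizontal scales differ between the panels; the purple points run from 0.48 to 3.45, from -3.04 to -0.24 and from -6.49 to -0.73, and the grey points lie between -0.82 and 0.18.

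The relatives that serve leucine and other branched-chain amino acids had median differences close to 0. Of 10 such genes, 8 were tested; BCAT6 and BCAT7 had too few counts. edgeR called 0 of 8 in each of the 3 comparisons, and at an unadjusted p under 0.05 it was 0 in gir1-1, 2 lower in atml1-3 (IMD2 and BCAT1) and 0 between the mutants, beside 7.52%, 11.7% and 7.35% of all genes. DESeq2 called 0 in each. All 3 atml1-3 libraries lay below all WT libraries for 2 of 8, IMD2 and BCAT1, against 8.64% of all genes. They lay below all gir1-1 libraries for 1 of 8, against 7% of all genes. IMD2 was also wholly below WT in gir1-1, the only 1 of the 8, but the share of all genes is not given here, so nothing is read from it. The median log2 differences of the 8 relatives were -0.05, -0.10 and -0.09, with BCAT1 the lowest against WT at -0.67 in gir1-1 and -0.82 in atml1-3. IPMI SSU1, the small subunit of leucine synthesis, whose gene ends 150 bases before IPMI SSU2 on the same strand, stood at 88.1, 102 and 95.7 FPKM in WT, at 96.0, 94.7 and 107 in gir1-1, and at 93.5, 101 and 100 in atml1-3. The level of IPMI SSU1 thus varied by less than its neighbour's in every genotype. BCAT2 had a log2 difference of -0.35 (SE 0.18) and BCAT5 of -0.21 (SE 0.23) between the mutants, with adjusted p-values of 0.700 and 0.851 by edgeR.

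Within each enzyme family, the share of the summed FPKM held by the chain-elongation genes (BCAT4 without BCAT3 among the aminotransferases) was computed, a measure added after the values had been seen. Among condensing enzymes (with IPMS1 and IPMS2), MAM1 and MAM3 held 21.3%, 34.3% and 4.97% for WT replicates 1 to 3, 82.7%, 75.8% and 64.1% for gir1-1, and 6.93%, 3.36% and 1.37% for atml1-3. Among the decarboxylating dehydrogenases (with IMD2 and IMD3), IMD1 held 31.0%, 50.3% and 8.98% for WT, 80.1%, 75.3% and 56.6% for gir1-1, and 13.6%, 8.30% and 3.29% for atml1-3. Thus the chain-elongation enzymes made up most of both families in each gir1-1 library and a minor share in each atml1-3 library. SSU2 and SSU3 together held 8.23%, 22.0% and 2.90% of the small subunits for WT, 57.6%, 37.1% and 35.5% for gir1-1, and 3.52%, 2.76% and 1.69% for atml1-3. BCAT4 held 7.35% ± 6.22, 43.4% ± 11.2 and 1.42% ± 1.06 of the 7 branched-chain aminotransferases in WT, gir1-1 and atml1-3 (mean ± SD, n = 3 each). In all 4 families the gir1-1 libraries lay above every WT library, and WT replicate 3 lay within the range of atml1-3.

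**Figure D4:**
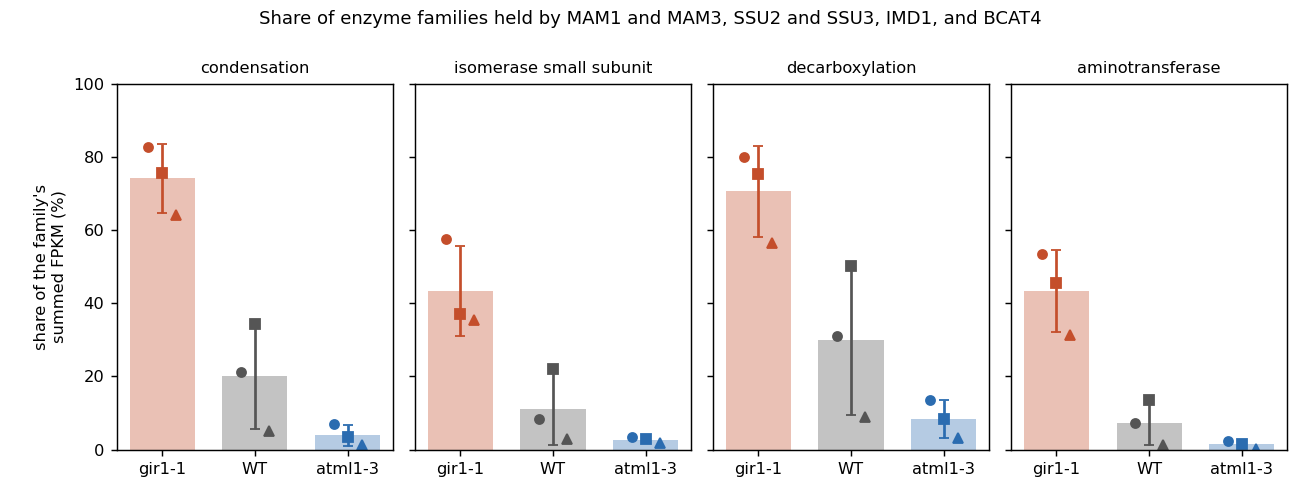
Share (%) of the summed FPKM of each enzyme family held by MAM1 and MAM3 (condensation), SSU2 and SSU3 (isomerase small subunit), IMD1 (decarboxylation) and BCAT4 (aminotransferases, with BCAT3 among the others), with bars at the mean of the 3 libraries, error bars of 1 SD and 1 point per library (circle, square and triangle for replicates 1, 2 and 3). The condensing enzymes run from 64.1% to 82.7% in gir1-1, from 4.97% to 34.3% in WT and from 1.37% to 6.93% in atml1-3.

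Ratios of paired genes within a library do not depend on its scaling. For each count of MAM3 there were 23.9, 19.9 and 14.4 counts of MAM1 for WT replicates 1 to 3, 23.1, 40.0 and 48.0 for gir1-1, and 21.4, 10.7 and 2.33 for atml1-3, with 0.5 added to both counts. The mean log2 ratio of MAM3 to MAM1 differed from WT by -0.90 in gir1-1 and by 1.23 in atml1-3, with adjusted p-values of 0.3 in both by an exact two-sided permutation test (6 tests, unadjusted p 0.2 and 0.3), and the mutants differed by 2.12 (unadjusted p 0.1, adjusted p 0.2). The value in atml1-3 rests on 2 to 4 counts of MAM3 per library, and without atml1-3 replicate 3 it was 0.33. The ratio of BCAT4 to BCAT3, the first and last aminotransferase of the pathway, was 0.344, 0.509 and 0.0482 for WT, 2.53, 2.29 and 1.08 for gir1-1, and 0.0756, 0.0497 and 0.0114 for atml1-3. BCAT4 thus had more counts than BCAT3 in all 3 gir1-1 libraries and in none of the other 6. The log2 differences from WT were 3.18 in gir1-1 and -2.54 in atml1-3, and that between the mutants was -5.72, with unadjusted p of 0.1, 0.3 and 0.1 and adjusted p of 0.2, 0.3 and 0.2 by the exact permutation test, for which 0.1 is the smallest p that 3 libraries against 3 allow.

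The later steps of aliphatic glucosinolate synthesis, which turn the elongated amino acid into the glucosinolate core, were examined through 11 genes, of which 10 were tested. edgeR called 0 of 10 in gir1-1 and 0 in atml1-3 against WT, with 9 higher and 7 lower at an unadjusted p under 0.05 (3.36% and 6.22% of all genes), and DESeq2 called 4 higher and 2 lower (0.382% of all genes higher in gir1-1, and 0.822% in either direction in atml1-3). Between the mutants edgeR called 3 lower in atml1-3 than in gir1-1, CYP79F1 at an adjusted p of 0.0487 and GSTU20 and UGT74B1 at 0.0423 each, and DESeq2 called 7 lower, beside 0.0782% and 0.543% of all genes. CYP79F1 is among these although, like MAM3, it passed the filter on low counts through gir1-1, the group where it was high. Its part in the counts above and its p-value are therefore no support for a difference. Median log2 differences were 1.02, -0.74 and -1.48. CYP79F1, which makes the aldoxime from elongated methionine, stood at 0.788, 3.91 and 0.143 FPKM in WT, at 42.8, 15.4 and 14.1 in gir1-1, and at 0.0764, 0.0873 and 0.0363 in atml1-3, with a log2 difference of -8.42 (SE 1.21) between the mutants. CYP83A1, the next enzyme, stood at 13.7, 41.8 and 3.99 FPKM in WT, at 158, 86.4 and 67.1 in gir1-1, and at 4.02, 2.00 and 1.65 in atml1-3. Both repeated the order of the WT libraries seen in chain elongation. GSTU20, a glutathione transferase, had a log2 difference of -3.35 (SE 0.45) between the mutants, and GGP1, a peptidase shared with indolic glucosinolates, one of -0.81 (SE 0.28) with an adjusted p of 0.649 by edgeR. GSTF11 is listed at 0 counts in every library.

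Regulators of the pathway were examined next. Of 6 regulators 4 were tested, and edgeR called 0 in each comparison, with 2 higher in gir1-1, 1 lower in atml1-3 and 2 lower in atml1-3 than in gir1-1 at an unadjusted p under 0.05, while DESeq2 called 1, 0 and 1. The shares of all genes were 3.36%, 6.22% and 3.99% at the unadjusted threshold, and 0.749%, 0.822% and 0.764% by DESeq2 in either direction. MYB28, the main activator of these genes, stood at 8.34, 18.2 and 10.8 FPKM in WT, at 24.7, 17.7 and 17.3 in gir1-1, and at 8.55, 8.32 and 12.8 in atml1-3. Its WT maximum was again replicate 2, and gir1-1 and WT overlapped. MYB29, a related activator, stood at 0.132, 0.209 and 0.0678 FPKM in WT, at 3.90, 0.701 and 1.96 in gir1-1, and had 0 counts in all 3 atml1-3 libraries. With 2 to 6 counts per WT library it passed the filter on low counts only through gir1-1, where it was high, so its part in the counts above and its p-values are no support for a difference. MYC3, a basic helix-loop-helix partner of these activators, stood at 25.6 ± 4.25, 27.2 ± 4.63 and 25.3 ± 2.86 FPKM in WT, gir1-1 and atml1-3 (mean ± SD, n = 3 each). MYC2, like GSTF11, is listed at 0 counts in every library, and whether such zeros come from expression or from the counting was not tested.

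Among 6 genes that make methionine, all tested, edgeR called 0 in each comparison, with 1, 1 and 1 lower at an unadjusted p under 0.05, while DESeq2 called 0, 0 and 1 (CBL), beside 7.52%, 11.7% and 7.35% of all genes in either direction at the unadjusted threshold and 0.749%, 0.822% and 0.764% by DESeq2. Median log2 differences were 0.08, -0.21 and -0.24. MS1, the most abundant methionine synthase, stood at 228 ± 33.4, 166 ± 9.85 and 177 ± 23.3 FPKM in WT, gir1-1 and atml1-3, and CGS1, the committed enzyme of methionine synthesis, at 138 ± 33.1, 137 ± 18.2 and 122 ± 21.6 (mean ± SD, n = 3 each). The log2 difference between the mutants was -0.80 (SE 0.17) for CBL, cystathionine beta-lyase, and -0.72 (SE 0.38) for MS2, with adjusted p-values of 0.231 and 0.716 by edgeR.

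The likeness of profiles to MAM1 was described by Pearson's r of log2 CPM over the 9 libraries, for the 19173 other genes tested; the libraries share genotype and preparation, so r is a description. BCAT4 came first at 0.996, followed by IPMI SSU2 at 0.992 and IMD1 at 0.991. IPMI SSU3 (0.966), MAM3 (0.940) and BAT5 (0.923) ranked 11, 18 and 25, and IPMI LSU1 (0.881) and BCAT3 (0.813) ranked 42 and 100. The 5 genes outside the set that were most like MAM1 were CYP83A1 (0.990), AK3 (0.988), CYP79F1 (0.985), CYP79F2 (0.985) and AT3G58980 (0.973). AK3 (AT3G02020) encodes an aspartate kinase, an enzyme at the head of the aspartate family of amino acids, and stood at 1.85, 5.69 and 0.218 FPKM in WT, at 34.9, 22.5 and 14.4 in gir1-1, and at 0.404, 0.252 and 0.163 in atml1-3. AT3G58980, which the deposited table describes as an F-box protein, begins 51 bases beyond the end of IPMI SSU3 on the same strand; whether reads of one were counted for the other was not tested.

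The bases just upstream of MAM1 and BCAT4, the pair most alike in profile, are shown with those of IPMI LSU1, a gene of little difference, so that a member of each kind can be read. The stretches are 300 bases long, end at the base before the annotated gene start and were read from the RefSeq TAIR10.1 genome, 5′ to 3′ on the strand of the gene, as chr5:7702741-7703040 (plus strand), chr3:6849583-6849882 (minus strand) and chr4:7807985-7808284 (minus strand). Capitals mark a G-box.
MAM1: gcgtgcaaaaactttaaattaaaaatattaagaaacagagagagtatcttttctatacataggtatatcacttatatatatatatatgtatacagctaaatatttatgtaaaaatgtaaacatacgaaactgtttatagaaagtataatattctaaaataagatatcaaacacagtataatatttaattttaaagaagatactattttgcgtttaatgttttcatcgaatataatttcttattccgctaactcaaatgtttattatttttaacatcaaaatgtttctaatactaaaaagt
BCAT4: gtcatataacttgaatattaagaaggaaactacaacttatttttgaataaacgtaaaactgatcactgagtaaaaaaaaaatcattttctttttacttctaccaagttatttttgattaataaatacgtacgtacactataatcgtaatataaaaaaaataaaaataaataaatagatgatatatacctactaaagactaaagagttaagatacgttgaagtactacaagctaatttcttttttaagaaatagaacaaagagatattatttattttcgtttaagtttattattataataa
IPMI LSU1: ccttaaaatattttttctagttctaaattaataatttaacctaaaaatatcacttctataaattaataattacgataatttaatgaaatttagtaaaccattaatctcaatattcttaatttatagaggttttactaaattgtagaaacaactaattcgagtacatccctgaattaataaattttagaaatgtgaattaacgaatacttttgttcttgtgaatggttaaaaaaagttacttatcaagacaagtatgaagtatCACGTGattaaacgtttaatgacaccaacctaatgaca
The G-box CACGTG, searched on both strands, occurred upstream of 1 of the 9 genes, IPMI LSU1, with its first base 38 bases before the gene start, and in 7.09% of 27443 such stretches over the genome. The L1 box of epidermal genes, searched as TAAATGTA or TAAATGCA on both strands, occurred in 0 of the 9 and in 5.51% of the genome's stretches. A match or its absence in this window describes the letters only.

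IPMI SSU2 and IPMI SSU3, small-subunit genes on different chromosomes, share letters just upstream of their starts. The 150 bases before each start are shown as chr2:17920497-17920646 (plus strand) and chr3:21798304-21798453 (minus strand), the whole distance to the preceding gene for SSU2, with capitals on the runs of 10 or more bases that both stretches hold.
IPMI SSU2: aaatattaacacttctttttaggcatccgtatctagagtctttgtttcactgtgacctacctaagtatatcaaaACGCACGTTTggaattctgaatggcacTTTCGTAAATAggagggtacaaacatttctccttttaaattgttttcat
IPMI SSU3: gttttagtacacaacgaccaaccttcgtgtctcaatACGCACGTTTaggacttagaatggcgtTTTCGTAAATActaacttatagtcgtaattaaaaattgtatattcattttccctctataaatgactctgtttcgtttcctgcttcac
The run ACGCACGTTT begins 76 bases before the SSU2 start and 114 bases before the SSU3 start, and TTTCGTAAATA begins 49 and 87 bases before them, so the spacing of 27 bases is the same in both. They occurred upstream of 7 and 39 of the 27443 genes, 0.0255% and 0.142%. Besides SSU2 and SSU3, AT5G57200 held both runs. That gene was not among those tested for expression, and the spacing of its runs was not read. Of the other 5 genes with the first run, 4 were tested, and their r with MAM1 was 0.959 (AT1G21440), 0.154 (ECHID), -0.324 (AT1G73325) and -0.330 (AT5G08270). Of the other 37 genes with the second run, 31 were tested, and their r with MAM1 lay between -0.61 and 0.62. The runs were found by comparing these 2 genes and were looked up after the expression values were known.

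Markers of other floral organs were read beside these results. The sepal and epidermis markers (AP1, ATML1, PDF1 and PDF2) summed to 273 to 393 CPM for WT, 252 to 324 for gir1-1 and 223 to 298 for atml1-3, and none was at 0 throughout a genotype. Most of this sum was AP1, with means of 240, 218 and 201 CPM in WT, gir1-1 and atml1-3. ATML1, with means of 37.9, 21.3 and 13.4 CPM, is itself the gene mutated in atml1-3, so its level there cannot serve as a marker of epidermis. PDF1, at means of 0.449, 0.221 and 0.383 CPM, was not tested. The 11 markers of petals, stamens, carpels, ovules, nectaries and tapetum summed to 41.9 to 56.4, 34.6 to 53.7 and 59.8 to 87.3 CPM, with 2 of the 11 at 0 in all libraries of each genotype (A9 in all, a zero of the same kind as that of MYC2, with STK in WT and atml1-3 and SWEET9 in gir1-1). Most of that sum was AP3, with means of 37.3, 38.2 and 56.5 CPM. The nectary markers CRC, SWEET9 and CWINV4 summed to 12.8, 7.41 and 1.76 CPM in WT replicates 1 to 3, to 0, 0.305 and 0.344 in gir1-1, and to 1.82, 5.74 and 6.20 in atml1-3. They were lowest in gir1-1, where chain-elongation genes were highest. In WT the nectary markers and MAM1 were both lowest in replicate 3, while the markers were highest in replicate 1 and MAM1 in replicate 2. The part of the nectary markers in the results was not tested.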

How the data were processed

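RNA-seq of sepals was analysed in 9 libraries, 3 each of WT, gir1-1 and atml1-3, grouped by the sample titles. The authors deposited one table with raw counts and FPKM per gene and library, and, per the file headers, log2 fold changes with p-values and adjusted p-values of the 3 pairwise comparisons. TAIR10 is the build in the submitters' processing notes; aligner, counting program, strand setting and the tool behind the deposited tests are not given in the sources used here. Columns of the authors' group means were not used. Gene starts and ends were the same as in RefSeq TAIR10.1 for all 38286 genes matched by ID.

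Counts were tested with edgeR 4.0.16 (R 4.3.3; TMM, filterByExpr defaults, quasi-likelihood F test, one fit of 9 libraries, 6 residual degrees of freedom, biological coefficient of variation 0.30) with Benjamini-Hochberg adjustment over 19174 genes at 0.05. DESeq2 1.42.0, other scalings, filters, a replicate block and leaving out each library were alternatives. CPM values are TMM-scaled; log2 CPM used a prior count of 2. FPKM was used as deposited. Fold values are ratios of mean CPM. Ratios within libraries used exact permutation tests (SciPy 1.17.1). The fit was tested on simulated counts of gir1-1 against WT. It called 8.25% of the changes of 2 times and 67.7% of those of 4 times, and 7 of its 82 calls were false. A gene not called by edgeR can therefore still differ. The genes and lists were chosen with earlier results of these data known. All 9 genes are named; from each list, the 2 most abundant and the 2 with the largest difference between the mutants; and the 5 genes most like MAM1; others named were chosen after their values were seen. Counts of 3 give the floor; total counts per library limit precision as stated in the text.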

Additional observations from a re-analysis of the deposited data

Results flagged for a closer look

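The change of MAM1 differed between the mutants: the log2 difference, atml1-3 minus gir1-1, was -6.49 (SE 0.88, n = 3 libraries each), with an adjusted p of 0.0423 (edgeR, Benjamini-Hochberg), and all 3 atml1-3 libraries lay below all 3 gir1-1 libraries. The call was lost without WT replicate 1 (adjusted p 0.0639) and without any single mutant library (0.0649 to 0.302).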

How the results depend on the processing

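Of the alternative values for the 9 genes, 361 kept their direction and side of the threshold, 35 passed it in addition, 7 lost it and 1 reversed: BAT5 in atml1-3 was 0.27 without WT replicate 2, and ran from -2.08 to 0.27 when any 1 library was left out. For the 9 genes, other scalings changed no call and no direction, nor did other added counts and FPKM for their ratios; in the other lists, scaling by library totals turned some directions, as in gir1-1 against WT, where it gave 10 higher and 0 lower in place of 9 and 1 for the later steps and 5 and 1 in place of 4 and 2 for methionine supply. In gir1-1 against WT, 3 of the 9 genes were called by DESeq2 and 0 to 2 when 1 library was left out; over all genes the count was 3, with 15 without the low-count filter, 153 by DESeq2, 1 with the replicate block and 0 to 6 leaving 1 out. In atml1-3 against WT, 0 of the 9 were called under every alternative run; over all genes the count was 0, with 1 without the filter, 156 by DESeq2 and 0 to 5 leaving 1 out. Between the mutants, 1 of the 9 was called, with 7 without the filter, 8 by DESeq2, 6 with only the genotypes compared, 4 with the replicate block and 0 to 6 leaving 1 out; over all genes it was 16, with 59, 156, 42, 20 and 1 to 30. The cause of these shifts was not tested. Replicate numbers did not pair the libraries: deviations of same-numbered libraries correlated by -0.174 to 0.121, so the block serves as a check only. Depth limits MAM3, at 2 to 4 counts per atml1-3 library.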
